A study of Mus musculus with 6 samples.

Results

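The 36 genes described here belong to the interferon response and to the sensing of foreign nucleic acid. They were taken from a list of 38 gene symbols, matched by name, through array probe sets (groups of probes read as 1 value) annotated with that single symbol or an older synonym, out of 21996 genes named in the same way. Oas1a and Ifi44 were not analysed here, and a gene with more than 1 probe set was represented by its brightest. The arrays, single-colour Affymetrix mouse arrays, carried total RNA from C3H10T1/2 adipocytes (C3H10T1/2 is a mouse mesenchymal stem-like cell line able to form fat cells). In 3 biological replicates the cells had received an adenovirus with a short hairpin RNA against Zc3h10 (Zc3h10 shRNA), which encodes a zinc finger RNA-binding protein, and in 3 an adenovirus with a scrambled sequence (scramble). All 6 cultures are labelled as 9 days differentiated and were given adenovirus at a multiplicity of infection of 50 for 72 h, and the labels name a U6 promoter for the Zc3h10 hairpin. Both groups therefore carried virus, a single Zc3h10 hairpin construct was used, and no culture without virus is among the arrays analysed here.

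Cells recognise viral RNA in the cytosol through the helicases RIG-I (Ddx58) and MDA5 (Ifih1), which signal through the mitochondrial adaptor MAVS to the transcription factors IRF3 and IRF7 and so to the interferon genes. Secreted interferon binds the receptor made of IFNAR1 and IFNAR2, and a complex that holds STAT2 and IRF9 then turns on genes whose promoters carry the interferon-stimulated response element (ISRE), among them Ifit1, Isg15, Usp18 and the oligoadenylate synthetases. Their products block viral translation, degrade RNA or limit the response itself, and several of the sensors are in turn induced by interferon.

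Promoter windows were available for 28 of the 36 genes in the RefSeq annotation of build GRCm38.p6, each running from 250 bases before to 50 bases after a transcription start. The ISRE core, written as GAAA and GAAA with any 2 bases between them and searched on both strands, occurred in 11 of the 28 (39.3%), and in 1079 of the 27025 genes with a window (3.99%). The letters TTCNNNGAA of the interferon-gamma activated sequence, which read the same on both strands, occurred in 9 of the 28 (32.1%) and in 2582 of the 27025 (9.55%). A match describes the letters and does not show that a factor binds there. Because the genes were listed for their part in this response, the higher shares are no finding about these data. Windows are shown for genes on which the results below turn, 5′ to 3′ on the gene's strand, with the 250 bases before the start and the first 20 after it, in lower case with ISRE core matches in capitals.
Mavs, chr2:131233813-131234082, plus strand: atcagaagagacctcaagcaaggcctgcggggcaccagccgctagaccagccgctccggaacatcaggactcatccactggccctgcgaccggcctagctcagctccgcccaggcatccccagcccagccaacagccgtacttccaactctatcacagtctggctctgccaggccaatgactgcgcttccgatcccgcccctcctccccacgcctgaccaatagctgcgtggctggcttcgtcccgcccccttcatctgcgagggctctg
Ddx58, chr4:40239806-40240075, minus strand: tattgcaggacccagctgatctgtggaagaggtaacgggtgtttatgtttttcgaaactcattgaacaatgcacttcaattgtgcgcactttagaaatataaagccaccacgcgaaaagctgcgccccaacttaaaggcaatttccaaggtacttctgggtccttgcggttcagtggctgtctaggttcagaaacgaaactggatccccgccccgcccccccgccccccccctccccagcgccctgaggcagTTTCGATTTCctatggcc
Stat2, chr10:128270248-128270517, plus strand: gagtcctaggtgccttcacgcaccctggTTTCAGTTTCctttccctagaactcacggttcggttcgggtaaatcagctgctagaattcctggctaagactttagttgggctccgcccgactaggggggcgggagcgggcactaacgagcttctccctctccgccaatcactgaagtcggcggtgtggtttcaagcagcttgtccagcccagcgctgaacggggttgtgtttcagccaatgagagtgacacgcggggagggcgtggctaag
Ifit1, chr19:34640639-34640908, plus strand: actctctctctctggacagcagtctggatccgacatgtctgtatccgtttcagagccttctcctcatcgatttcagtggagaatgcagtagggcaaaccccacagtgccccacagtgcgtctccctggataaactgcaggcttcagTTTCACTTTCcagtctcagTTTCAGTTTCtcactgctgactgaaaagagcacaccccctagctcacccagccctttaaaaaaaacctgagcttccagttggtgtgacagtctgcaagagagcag
Isg15, chr4:156200799-156201068, minus strand: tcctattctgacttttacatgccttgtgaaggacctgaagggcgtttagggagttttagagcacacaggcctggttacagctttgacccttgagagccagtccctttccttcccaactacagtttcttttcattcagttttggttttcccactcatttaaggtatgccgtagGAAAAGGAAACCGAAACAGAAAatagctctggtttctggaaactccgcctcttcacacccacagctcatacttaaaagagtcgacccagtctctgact

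The Mavs window held no ISRE core, and neither did those of Oasl2, Irf7 and Irf3. The Isg15 window held overlapping matches in a run of 22 bases, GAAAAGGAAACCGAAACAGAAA, that begins 78 bases before the start. Ifit1 held 2, on the opposite strand, at 104 and 85 bases before the start, and the neighbouring family member Ifit3 held the same pair of letter runs, TTTCACTTTC and TTTCAGTTTC, at 156 and 122 bases. Stat2 held 1 match at 222 bases before the start, and Ddx58 held 1 just inside the transcript. Bst2 (GAAAATGAAACTGAAA, 130 bases before the start) held overlapping matches as well, and the other genes with a match were Ifih1, Eif2ak2, Oas3, Rsad2 and Ddx60.

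Fat cell markers were present, with 7 of 8 adipocyte genes above the background limit. That limit was a mean log2 intensity of 4.37, which 35 of 1388 olfactory and vomeronasal receptor probe sets exceeded. Of the 36 genes, 26 lay above the limit and 10 did not. The 8 adipocyte markers summed to intensities of 8655 to 9424 on the Zc3h10 shRNA arrays and 15393 to 16898 on the scramble arrays, and 7 of them fell, and the part of this change in the results below was not tested. In bulk RNA, fewer cells of a type and less RNA per cell cannot be told apart. Of 10 markers of macrophages and other leukocytes, which are rich in interferon-induced transcripts, 3 lay above the limit, and their sums were 165 to 184 on the shRNA arrays and 182 to 184 on the scramble arrays. Those above the limit were Cd68, Cd14 and Fcer1g. Among those under the limit were Ptprc, the leukocyte common antigen, and Adgre1, the macrophage marker F4/80. None of 4 endothelial markers lay above it. Of 2 genes of plasmacytoid dendritic cells, the main blood source of interferon, Siglech was under the limit and Tcf4, which other cells also express, rose (log2 difference 0.41, limma adjusted p = 0.0364). Bst2, also listed as a marker of these cells, is 1 of the 36 genes and lay above the limit. Zc3h10 itself read 25.2, 30.2 and 22.9 on the shRNA arrays and 25.9, 39.0 and 35.3 on the scramble arrays (log2 difference −0.34 ± 0.17 SE, limma adjusted p = 0.301), so a reduction of the targeted transcript did not pass the test.

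Scramble replicate 3 stood apart from the other scramble arrays for the genes of the interferon response. It was the highest scramble array for 28 of the 36 genes (77.8%), as against 32.1% of all genes, and the highest of all 6 arrays for 17 of them (47.2%), as against 14.3% of all genes. The median gene of the group read 0.27 higher (log2) on that array than the mean of the other scramble arrays, while the median over all genes read 0.00 higher. Among the shRNA arrays, replicate 3 was the highest for 23 of the 36 genes (63.9%), as against 30.8% of all genes, and replicate 1 for 4. The cause was not tested, and values are also given without scramble replicate 3 where it matters. Since that array was picked for its high values, leaving it out raises the differences of genes high on it by the choice alone. The arrays otherwise correlated at r of 0.992 to 0.994 within a group over all probe sets.

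**Figure D1:**
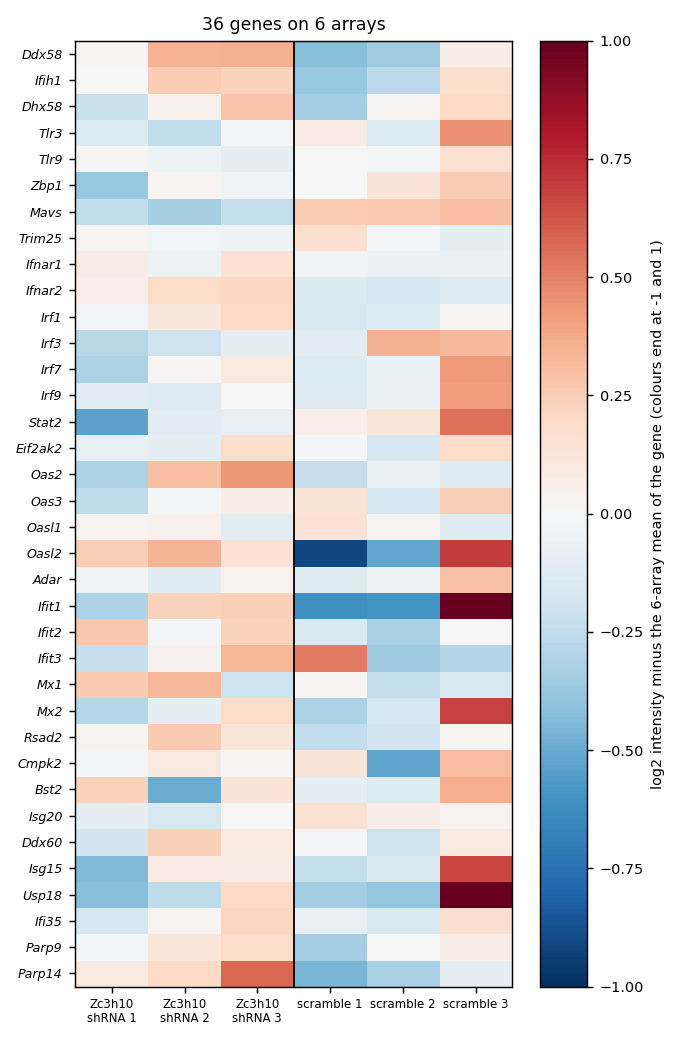
Each row is a gene and each column an array, with the 3 Zc3h10 shRNA arrays left of the 3 scramble arrays. Colour gives the log2 intensity minus that gene's mean over the 6 arrays, and the deepest red cells are Ifit1 and Usp18 on scramble replicate 3, which was the highest of the 6 arrays for 17 of the 36 genes.

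The interferon and sensor genes did not move together between the groups. At an adjusted p under 0.05 (limma, Benjamini-Hochberg over all 33079 probe sets), 1 of the 36 genes fell, which was Mavs, where 6.6% of all genes fell. Over all genes 12.1% changed in either direction, and over single probe sets 4.31% rose and 5.48% fell (9.79% in all). None of the 36 genes rose, where 5.51% of all genes rose, and an ordinary t statistic also gave 0 higher at an adjusted p under 0.05. At an unadjusted p under 0.05 (limma), 5 were higher and 3 lower. At that unadjusted threshold 25.2% of all genes differed. The log2 differences, Zc3h10 shRNA minus scramble, ran from −0.54 to 0.58 with 18 positive and 18 negative. Their median was 0.02, beside 0.01 over all genes. Complete separation of the 3 arrays of each group was seen for 3 genes that were higher and 3 that were lower, where 16.7% and 15.2% of all genes were so separated, or 31.9% in either direction.

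**Figure D2:**
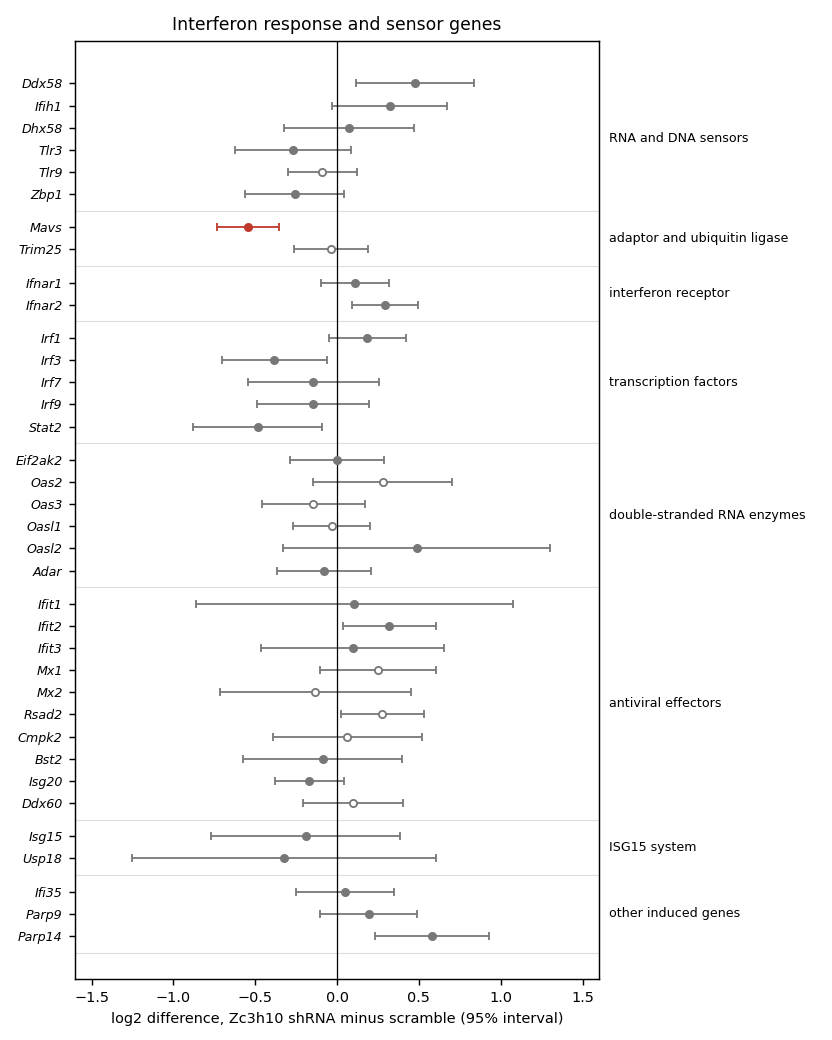
Points are log2 differences, Zc3h10 shRNA minus scramble, with 95% intervals of the limma fit for the 36 genes by role, and open points are genes not above the background limit. Mavs, in red, is the gene that passed the test at −0.54, and the intervals of Ifit1, Usp18 and Oasl2 are the widest.

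Mavs, the mitochondrial outer membrane adaptor on which RIG-I and MDA5 converge, read 269.9, 255 and 272 on the Zc3h10 shRNA arrays and 382, 385 and 396 on the scramble arrays. Every shRNA array lay below every scramble array, and the replicates of a group lay close together. The means were 266 ± 9.32 in Zc3h10 shRNA cells and 388 ± 7.65 in scramble cells (SD, n = 3 each). The log2 difference was −0.54 ± 0.08 SE, a 1.46-fold lower level, with a 95% interval of −0.74 to −0.35 (limma, adjusted p = 0.00565). Leaving out each array in turn gave −0.52 to −0.56 with adjusted p of 0.0162 to 0.0282, and the gene passed under all 16 alternatives tried. Trim25, the ubiquitin ligase that acts on RIG-I upstream of MAVS, read 5.32 to 5.59 on the shRNA arrays and 5.17 to 6.21 on the scramble arrays, and was not above the background limit.

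Among the sensors, the RIG-I gene Ddx58 read 275, 345 and 348 on the Zc3h10 shRNA arrays and 202, 212 and 285 on the scramble arrays. The shRNA arrays were higher except that shRNA replicate 1 lay under scramble replicate 3. The log2 difference was 0.48 ± 0.16 SE, or 1.39-fold, with an interval of 0.12 to 0.84, and missed the threshold (limma, adjusted p = 0.110). Without scramble replicate 3 it was 0.63 and passed (limma, adjusted p = 0.0420), and without any other single array it did not pass (limma, adjusted p of 0.0799 to 0.281). Scramble replicate 3 was singled out because genes of the list read high on it. Leaving it out raises the difference by that choice, so the pass is no support for a rise. With all arrays, Ddx58 passed only when the limma fit used an intensity trend (limma, adjusted p = 0.0404). Ifih1, the gene of MDA5, which binds long double-stranded RNA, read 83.6, 99.3 and 97.6 in shRNA cells and 64.1, 69.4 and 93.3 in scramble cells. Its pattern over the arrays was like that of Ddx58, with scramble replicate 3 among the shRNA values, and its difference was 0.32 ± 0.15 SE (limma, adjusted p = 0.273). Without scramble replicate 3 the difference of Ifih1 was 0.48 (limma, adjusted p = 0.0675).

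The other sensors gave smaller differences or were dim. Dhx58, the gene of the related helicase LGP2, which lacks signalling domains of its own, read 26.5, 31.8 and 37.6 in Zc3h10 shRNA cells and 24.4, 31.4 and 35.5 in scramble cells. The groups overlapped almost fully, at 0.07 with an interval of −0.32 to 0.47. Tlr3, the endosomal receptor for double-stranded RNA, was at −0.27, with 59.7, 55.2 and 64.5 in shRNA cells and 69.5, 59.6 and 89.8 in scramble cells. The groups overlapped for Tlr3, and without scramble replicate 3 the difference was −0.11. Zbp1, a sensor of left-handed nucleic acid helices, read 22.5, 29.9 and 28.5 in shRNA cells and 29.4, 32.02 and 35.0 in scramble cells, at −0.26 with an interval of −0.56 to 0.04. Tlr9, the receptor for unmethylated CpG DNA, was not above the background limit.

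The interferon receptor was well measured. Ifnar2 read 418, 458 and 467 on the Zc3h10 shRNA arrays and 367, 359.8 and 369 on the scramble arrays. All shRNA arrays lay above all scramble arrays, and the difference of 0.29 ± 0.09 SE, or 1.22-fold, had an interval of 0.09 to 0.49 but missed the threshold (limma, adjusted p = 0.0813). It passed under 4 of the alternatives, among them quantile normalization (limma, adjusted p = 0.0484). Ifnar1, the other chain of the receptor, read 511, 468 and 539 in shRNA cells and 474, 466 and 466 in scramble cells. Its difference of 0.11 had an interval of −0.10 to 0.32, so a difference was not detectable with 3 arrays a group.

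Of the transcription factors, 4 of 5 had negative differences over all arrays, 2 of 5 without scramble replicate 3, and none passed the test in either case. Stat2 read 173, 231 and 236 in Zc3h10 shRNA cells and 258, 272 and 367 in scramble cells. The groups did not overlap, and the difference was −0.49 ± 0.17 SE (interval −0.88 to −0.09; limma, adjusted p = 0.138). Without scramble replicate 3 it was −0.33. Irf3, which is activated downstream of MAVS, read 39.2, 41.3 and 44.8 in shRNA cells and 44.1, 60.9 and 59.7 in scramble cells. Its difference was −0.38 ± 0.14 SE (limma, adjusted p = 0.148), and scramble replicate 1 lay among the shRNA arrays. Without scramble replicate 1 the difference was −0.53 and passed (limma, adjusted p = 0.0287), but leaving out the overlapping array separates the groups by that choice. Without any other single array Irf3 was at −0.30 to −0.43 and did not pass (limma, adjusted p of 0.199 to 0.359). Irf7, an interferon-induced amplifier of interferon production, read 43.8, 54.8 and 58.0 in shRNA cells and 49.6, 51.8 and 73.2 in scramble cells. Irf9, the DNA-binding partner of STAT2, read 91.1, 89.7 and 98.3 in shRNA cells and 89.3, 93.7 and 130.5 in scramble cells. Scramble replicate 3 was the highest array for both, and the differences of −0.14 and −0.15 had intervals that included 0. Without that array they were 0.03 for Irf7 and 0.02 for Irf9. Irf1, which is induced mainly by interferon gamma, read 82.9, 91.2 and 97.1 in shRNA cells and 75.6, 77.1 and 85.7 in scramble cells, at 0.19 (interval −0.05 to 0.42).

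**Figure D3:**
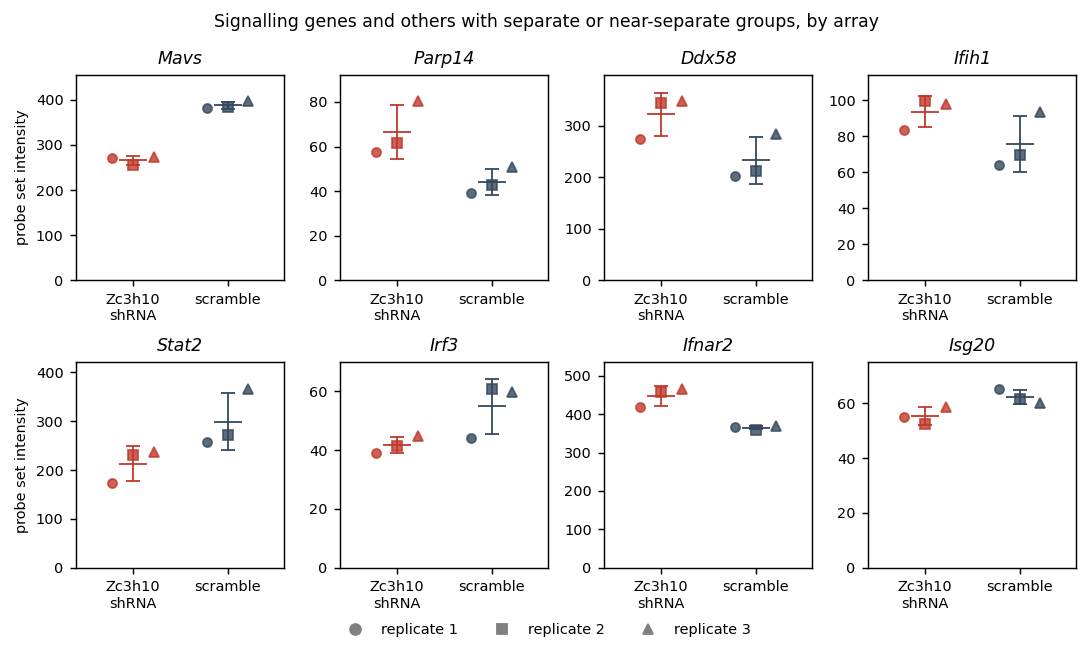
Probe set intensity (linear scale from 0) is plotted for 8 genes, with the 3 Zc3h10 shRNA arrays left of the 3 scramble arrays, a symbol for each replicate, and the mean and SD as bars. Mavs shows narrow groups that are apart (266 in shRNA and 388 in scramble cells), while Ddx58 and Ifih1 overlap through scramble replicate 3.

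Among the interferon-induced effectors the SE of the difference ran from 0.09 for Isg20 to 0.42 for Ifit1. Ifit1, whose product binds viral RNA with unmethylated caps, read 90.3, 131 and 132 on the Zc3h10 shRNA arrays and 73.1, 73.8 and 232 on the scramble arrays. The shRNA arrays lay between the low pair of scramble arrays and scramble replicate 3, which was 3.16-fold above the mean of that pair. The difference over all arrays was 0.11 ± 0.42 SE (interval −0.86 to 1.07; limma, adjusted p = 0.927). Leaving out scramble replicate 3 gave 0.66 (limma, adjusted p = 0.0865). Ifit2, of the same family, was at 0.32 ± 0.12 SE (interval 0.04 to 0.60; limma, adjusted p = 0.173), with 42.5, 34.6 and 41.2 in shRNA cells and 31.7, 28.1 and 35.1 in scramble cells, whose ranges met at a single pair of arrays. Ifit3 read 35.5, 43.0 and 52.4 in shRNA cells and 59.3, 32.5 and 34.0 in scramble cells. For Ifit3 the high scramble array was replicate 1 and not replicate 3, the groups overlapped, and the difference was 0.10 ± 0.24 SE.

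The ISG15 system showed the same high array as Ifit1. Usp18, the protease that removes ISG15 and restrains the interferon receptor, read 32.6, 36.8 and 50.2 in Zc3h10 shRNA cells and 34.5, 33.6 and 102 in scramble cells. The value of 102 belongs to scramble replicate 3 and was 2.99-fold above the other scramble arrays, which lay among the shRNA arrays. Usp18 was at −0.32 ± 0.40 SE over all arrays (interval −1.25 to 0.60) and at 0.20 without scramble replicate 3, and Isg15, the ubiquitin-like modifier, was at −0.19 ± 0.25 SE (interval −0.77 to 0.39) and at 0.10 without it. Isg15 read 20.4, 29.4 and 29.2 in shRNA cells and 23.5, 25.2 and 44.1 in scramble cells. So the sign of both differences depended on that array, and neither passed the test in either case.

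Among the enzymes that act on double-stranded RNA, Oasl2, an oligoadenylate synthetase-like gene, read 30.9, 32.9 and 28.7 in Zc3h10 shRNA cells and 13.8, 18.2 and 42.1 in scramble cells. The shRNA arrays were close to each other, above the first pair of scramble arrays and below scramble replicate 3. The difference was 0.49 ± 0.35 SE (interval −0.33 to 1.30; limma, adjusted p = 0.505). Leaving out scramble replicate 3 gave 0.96, which passed (limma, adjusted p = 0.0132). Without that array, 2 of the 36 genes rose (Ddx58 and Oasl2), where 3.28% of all genes did, and 1 fell (Mavs), where 4.34% did. Then 25 of the 36 differences were positive (69.4%, beside 52.5% of all genes), with a median of 0.12 beside 0.01 over all genes. That array was singled out because these genes read high on it, so leaving it out raises their differences by the choice alone. The upward shift is therefore no support for a rise, and its cause was not tested. Without scramble replicate 2, 14 were positive (38.9%, beside 52.5% of all genes, median −0.07). Without shRNA replicate 3, 16 were (44.4%, beside 53.5%, median −0.05). The counts were 18 without scramble replicate 1 (50%, beside 53.3%), 19 without shRNA replicate 1 (52.8%, beside 52.4%) and 20 without shRNA replicate 2 (55.6%, beside 51.6%). Eif2ak2, the gene of the kinase PKR, which halts translation on double-stranded RNA, read 209.5, 206 and 249 in shRNA cells and 218, 196 and 251 in scramble cells. Its difference was 0.00 with an interval of −0.29 to 0.29, and the groups overlapped. Adar, whose product edits adenosine in double-stranded RNA, read 90.3, 84.7 and 94.8 in shRNA cells and 85.2, 89.1 and 113 in scramble cells, at −0.08 (interval −0.37 to 0.21). Oas2, Oas3 and Oasl1 were not above the background limit, with differences of 0.28, −0.15 and −0.03, and Oas2 passed only without shRNA replicate 1 (0.50; limma, adjusted p = 0.0327).

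**Figure D4:**
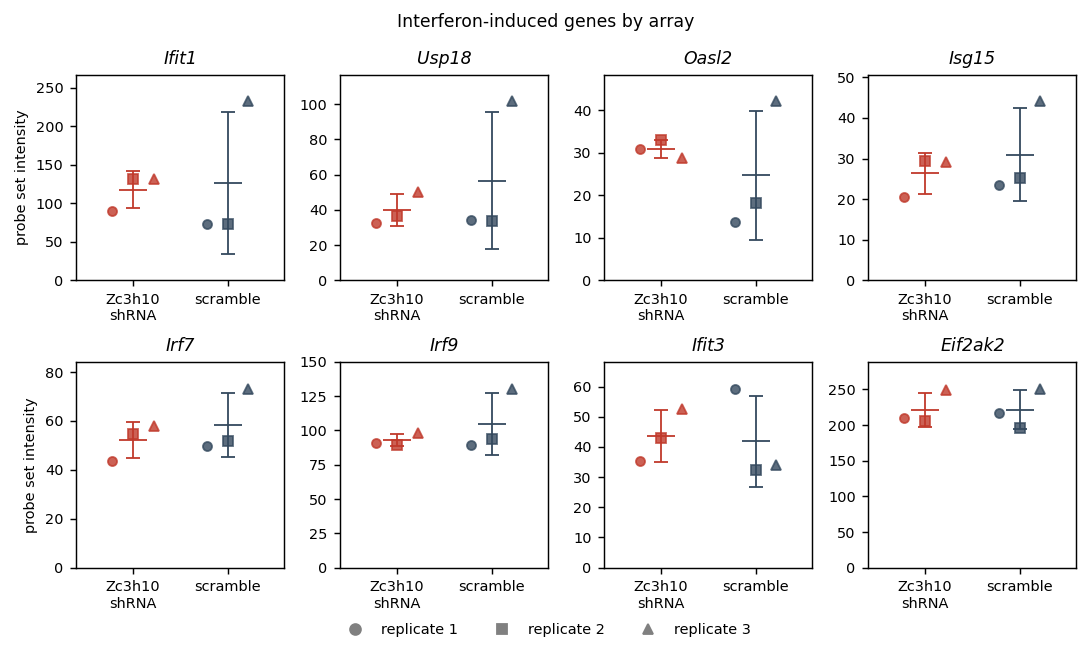
Probe set intensity (linear scale from 0) is plotted for 8 interferon-induced genes, with the 3 Zc3h10 shRNA arrays left of the 3 scramble arrays, a symbol for each replicate, and the mean and SD as bars. Scramble replicate 3 (triangle) is the highest of the 6 arrays for Ifit1, Usp18, Oasl2, Isg15, Irf7, Irf9 and Eif2ak2, and scramble replicate 1 (circle) for Ifit3.

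The other effectors gave no call. Isg20, an exonuclease of single-stranded RNA, read 55.0, 52.4 and 58.8 in Zc3h10 shRNA cells and 65.3, 61.4 and 60.1 in scramble cells, and the groups did not overlap, at −0.17 ± 0.09 SE (limma, adjusted p = 0.340). Rsad2, the gene of viperin, which makes a chain-terminating nucleotide, read 17.3, 20.4 and 18.5 in shRNA cells and 14.3, 14.9 and 17.3 in scramble cells. The groups of Rsad2 did not overlap by a narrow margin, at 0.28 ± 0.11 SE (limma, adjusted p = 0.189), but the gene was not above the background limit. Its neighbour Cmpk2, a mitochondrial nucleotide kinase, and Mx1, Mx2 and Ddx60 were not above it either, with differences of −0.13 to 0.25. Bst2, the gene of tetherin, which holds budding virus at the cell surface, read 56.7, 34.3 and 52.7 in shRNA cells and 45.4, 43.8 and 62.0 in scramble cells, at −0.09 (interval −0.58 to 0.40). The spread of Bst2 within each group exceeded the difference.

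Parp14 had the highest difference of the 36 genes. This ADP-ribosyltransferase, which modifies proteins of the antiviral response, read 57.4, 61.7 and 80.2 in Zc3h10 shRNA cells and 39.1, 42.9 and 50.6 in scramble cells. All shRNA arrays lay above all scramble arrays. The means were 66.4 ± 12.1 in shRNA cells and 44.2 ± 5.87 in scramble cells (SD, n = 3 each), and the log2 difference of 0.58 ± 0.15 SE (interval 0.23 to 0.93) missed the threshold narrowly (limma, adjusted p = 0.0516). It passed with quantile normalization (0.0449), cyclic loess (0.0498) and other alternatives, but not with any single array left out (limma, adjusted p of 0.0509 to 0.151). Parp9, a partner enzyme, was at 0.19 (interval −0.10 to 0.49) with 61.8, 67.7 and 70.7 in shRNA cells and 48.9, 62.1 and 65.3 in scramble cells. Ifi35, an interferon-induced leucine zipper protein, read 162, 186 and 211 in shRNA cells and 173, 164 and 204 in scramble cells, at 0.05 (interval −0.25 to 0.35).

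**Figure D5:**
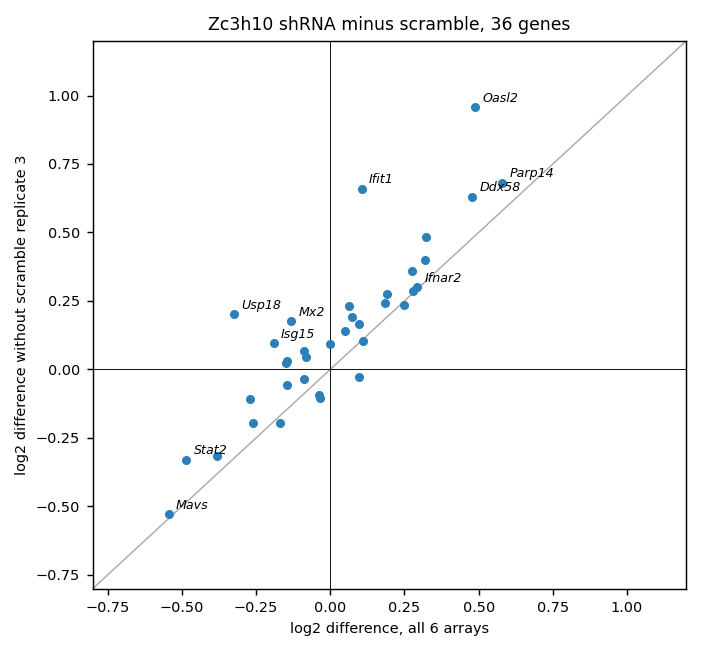
Each point is 1 of the 36 genes, with its log2 difference (Zc3h10 shRNA minus scramble) over all 6 arrays on the x axis and without scramble replicate 3 on the y axis; the grey line marks equal values. Ifit1, Usp18 and Oasl2 lie farthest above the line, while Mavs lies near it at −0.54 and −0.53.

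Of 91 genes of the same pathway outside the list, 81 were measured, of which 4 rose and 5 fell. These shares are near those of all genes (5.51% rose and 6.6% fell), as are the counts in the larger lists below, so they are given for the genes called and not as a result about the lists. Of the interferons themselves, 0 of 9 measured passed the limma test, also 0 at an unadjusted p under 0.05, and 4 of the 9 lay above the background limit (Ifna1, Ifna4, Ifnl2 and Ifnl3) while Ifnb1, the gene of interferon beta, did not. Near-identical interferon alpha and lambda copies can share probes. Of 13 receptor kinases, STATs and inhibitors, 1 fell. That gene was Ifngr1, the ligand-binding chain of the interferon gamma receptor, with 417, 362 and 371 in Zc3h10 shRNA cells and 710.2, 793 and 729 in scramble cells. The groups were far apart, at −0.96 ± 0.10 SE (limma, adjusted p = 0.00117), and Ifngr2, the other chain, was at −0.34 ± 0.12 SE without passing (limma, adjusted p = 0.137).

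Of 15 measured genes of DNA sensing and the TBK1 kinase axis, Samhd1 rose and Tank fell, where 5.51% of all genes rose and 6.6% fell. Samhd1, a nucleotide hydrolase that restricts viruses, read 1079, 1273 and 1386 in shRNA cells and 722, 689.9 and 792 in scramble cells, with no overlap. Its difference was 0.76 ± 0.12 SE (limma, adjusted p = 0.00590). Tank, a scaffold of TBK1, was at −0.38 ± 0.09 SE (limma, adjusted p = 0.0442) and lost the call without any 1 array other than scramble replicate 1. Of 38 other interferon-induced genes, Ifitm3 and Pml rose and Ifi30, Ifi27 and Lgals3bp fell. Ifitm3, which blocks viral entry from endosomes, read 1575, 1712 and 1774 in shRNA cells and 946, 864 and 999.8 in scramble cells. Ifitm3 was at 0.85 ± 0.10 SE (limma, adjusted p = 0.00176), and Pml, the organiser of nuclear bodies, at 0.49 ± 0.11 SE (limma, adjusted p = 0.0283). Ifi30, a lysosomal thiol reductase of antigen processing, read 152, 140.1 and 159 in shRNA cells and 215, 269 and 239 in scramble cells, at −0.68 ± 0.11 SE (limma, adjusted p = 0.00726). Ifi27, a small membrane protein gene induced by interferon alpha, was at −0.60 ± 0.10 SE (limma, adjusted p = 0.00786). Lgals3bp, which encodes a secreted galectin-binding protein, was at −0.58 ± 0.09 SE (limma, adjusted p = 0.00574). Dicer1, which cuts double-stranded RNA into small RNAs, rose at 0.46 ± 0.09 SE (limma, adjusted p = 0.0153) as the 1 call among 6 measured RNase L and double-stranded RNA partners. With 1 array left out, Pml passed only without scramble replicate 3, and Dicer1 lost its call without shRNA replicate 2, shRNA replicate 3 or scramble replicate 3. By an ordinary t statistic over all arrays, Samhd1, Tank, Pml and Ifi30 lost their calls. Tank also lost its call with replicate number as a block.

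The elevation on scramble replicate 3 was also present in those 38 genes. It was the highest scramble array for 24 of them (63.2%, as against 32.1% of all genes), and 7 (18.4%) read over 1.5-fold above the other scramble arrays, as against 0.6% of all genes and 5 of the 36 (13.9%). Rtp4, a chaperone that restrains the response, read 120.1, 187 and 197 in Zc3h10 shRNA cells and 94.2, 112 and 227 in scramble cells. Gbp7, a guanylate-binding protein, read 37.0, 57.1 and 64.1 in shRNA cells and 37.0, 36.7 and 80.2 in scramble cells. For both, as for Ifit1, shRNA replicates 2 and 3 lay between scramble replicate 3 and the other scramble arrays. These examples were chosen after their values were seen. The called genes Ifitm3, Pml, Ifi27, Ifi30 and Lgals3bp were not among the 7, at 1.11, 1.19, 0.99, 0.99 and 1.08 times the other scramble arrays.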

How the data were processed

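Expression was measured on 6 arrays, 3 Zc3h10 shRNA and 3 scramble, grouped by the replicate titles. The authors deposited linear intensities, 1 per probe set for each array, with no pooled column. The linear scale was read from the values, whose array medians were 15.6 to 16.1. Per the submitters' processing notes, Affymetrix Expression Console and Partek 6.6 were used. Of background correction and array scaling, the sources used here say nothing, and dim probe sets depend on it most. The number of arrays limits the precision.

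Log2 was taken with no pseudocount, and 33079 probe sets entered lmFit and eBayes of limma 3.58.1 under R 4.3.3 (two-sided, Benjamini-Hochberg over all probe sets, threshold 0.05, the 5% of the design text). The code was tested on simulated data. Genes were named from the platform annotation where a probe set had 1 symbol (23043), not several (1740) or none (8296). The members, roles, related lists and motifs were chosen with earlier results of these data known. All measured members were to be named, with up to 4 related genes per list by smallest p or all of 5 or fewer calls. Probe sets of paralogs can bind each other's transcripts, as in the Ifit, Oas and Ifna families. Alternatives were other scalings, an offset of 32, filters on dim probe sets, an intensity trend, an ordinary t statistic, a replicate block, the mean of a gene's probe sets, and each array left out.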

Additional observations from a re-analysis of the deposited data

How the results depend on the processing

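The fall of Mavs kept its direction and its call under all 16 alternatives. The count of interferon and sensor genes that rose, 0 with all arrays, was 2 with quantile normalization, 1 with cyclic loess, 1 with an offset of 32, 1 without the dimmest 25% of probe sets and 2 with a stricter filter on dim ones, 3 with an intensity trend, 1 with the replicate block, 1 with the mean of a gene's probe sets, and 0 to 2 with 1 array left out; it was 0 with median centring and with the ordinary t statistic. The genes added were Parp14, Ifnar2, Ddx58, Oasl2 or Oas2. The count that fell was 1 to 2 with 1 array left out, the other gene being Irf3 without scramble replicate 1. Where fewer probe sets or arrays entered, the tests had a smaller table or fewer samples; otherwise the cause was not tested.

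Across all probe sets, 1426 rose and 1812 fell. An offset of 32 gave 2156 rises, the ordinary t statistic 915 rises and 1057 falls, and leaving out 1 array 733 to 1105 rises and 1074 to 1473 falls. Among related pathway genes the ordinary t statistic called 2 higher and 3 lower, and leaving out 1 array gave 2 to 4 higher and 4 to 5 lower. Scalings moved the median of all probe sets by under 0.1 (log2).

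Signs of some uncalled differences turned when single arrays were left out, with ranges of −0.16 to 0.044 for Adar, −0.23 to 0.13 for Bst2, −0.19 to 0.23 for Cmpk2, −0.077 to 0.20 for Dhx58, −0.086 to 0.093 for Eif2ak2, −0.046 to 0.15 for Ifi35, −0.17 to 0.66 for Ifit1, −0.059 to 0.38 for Ifit3, −0.25 to 0.032 for Irf7, −0.25 to 0.023 for Irf9, −0.36 to 0.10 for Isg15, −0.32 to 0.18 for Mx2, −0.10 to 0.031 for Oasl1, −0.095 to 0.038 for Trim25 and −0.60 to 0.20 for Usp18. The highest value came without scramble replicate 3 for Adar, Cmpk2, Eif2ak2, Ifit1, Irf7, Irf9, Isg15, Mx2 and Usp18. Eif2ak2 was at 0.029 with quantile normalization. The cause was not tested.

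Replicate numbers are shared between the groups, but same-numbered arrays deviated together only weakly over all probe sets (r of 0.0845, −0.00464 and 0.0425), so the numbers were not taken as pairs. Among the 36 genes, however, replicate 3 was the highest of its group for 63.9% on the shRNA and 77.8% on the scramble arrays. For replicate 1 these shares were 11.1% and 16.7%, and for replicate 2 they were 25% and 5.56%. Pairing within the 36 genes was not tested. With the replicate block, Mavs kept its call (limma, adjusted p = 0.0246), Parp14 gained one (0.0218), and 1031 probe sets rose and 1424 fell.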
